A study of Mus musculus with 6 samples.

Results

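Genes of interferon and JAK-STAT cytokine signalling were examined in skin keratinocytes of K15-EGFP transgenic mice, separated by flow sorting. Members were chosen by gene symbol from a list of 42 genes, and every probe set that the platform annotation pairs with 1 of these symbols was taken. The list is represented by 38 genes on 48 probe sets, of 8251 named genes on 10833 named probe sets. Stat2, Irf2, Oas1a and Bst2 are not analysed here. The members fall into 7 receptor genes, 4 kinases, 4 STATs, 3 SOCS inhibitors, 6 interferon regulatory factors (IRFs) and 14 interferon-induced genes.

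The study compared 3 arrays of EGFP-high cells with 3 arrays of EGFP-negative cells, all sorted as α6 integrin positive. EGFP, a green fluorescent protein, is driven here by the promoter of keratin 15 (K15), and it marks cells in which that promoter is active. In mouse skin such cells lie mainly in the bulge of the hair follicle, where its stem cells reside. All arrays share the transgene, the tissue and total RNA as starting material. Strain, age and pooling of animals are not given in the labels, nor is it stated that replicates are independent mice, so a p-value reflects only spread among these samples, which may be technical. The gates could not be checked through Krt15 itself, because its probe set and that of Krt14 stayed no brighter than the controls on every array. The 13 keratinocyte markers on the array, of 15 listed, summed to 28160.0 to 30960.0 in EGFP-high and 30610.0 to 35210.0 in EGFP-negative cells. Of these, Itga6, which encodes the α6 integrin of the gate, read 485.1, 405.6 and 585.3 in EGFP-high and 1178.1, 1050.0 and 1371.4 in EGFP-negative cells (log2 -1.26, SE 0.18, limma adjusted p = 0.00449). Sfn, an epidermal 14-3-3 protein, was lower too (log2 -1.31, SE 0.23, adjusted p = 0.0106).

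Interferons bind paired receptor chains at the cell surface. The bound Janus kinases (JAKs) then phosphorylate STAT proteins, which enter the nucleus and switch on target genes. Type I interferons use Ifnar1 and Ifnar2 and lead to ISGF3, a complex that contains Irf9, whereas interferon gamma uses Ifngr1 and Ifngr2. Many cytokines share this scheme, and SOCS proteins and Usp18 limit it. In skin the pathway is known for antiviral defence of keratinocytes and for raising antigen presentation, and the hair follicle is known as a site of low antigen presentation.

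Where members passed the test, nearly all were lower in EGFP-high cells. The ligand-binding interferon gamma receptor chain Ifngr1, the kinase Ikbke and the antiviral membrane protein Ifitm3 fell. So did the cytokine receptor chains Il12rb2, Il4ra and Il6st and the interferon feedback protease Usp18, and the inhibitor Socs2 rose. Of 48 member probe sets 31 were bright enough to be tested, and 8 of the 31 passed, 1 higher and 7 lower in EGFP-high cells, where 5.19% of all 7453 tested probe sets passed, 3.02% higher and 2.17% lower (limma on log2 intensities, Benjamini-Hochberg adjusted p under 0.05). The median log2 difference of the 31 was -0.28, and that of all tested probe sets was -0.0017. Members and lists were chosen with earlier results of these data known. Their shares therefore describe the lists and are not independent evidence that the pathway differs. When every probe set was fitted whatever its brightness, 3 of 48 member probe sets passed, all lower, where 2.63% of 12422 passed, 1.59% higher and 1.05% lower. Those 3 were Ifngr1, Ikbke and Ifitm3, and the median over all 48 was -0.21 against 0.012 for the 12422. Only 2 of the 31 tested probe sets, those of Ifngr2 and Ifi35, had a group mean below the brightness limit, and neither passed. The count of 8 changed when single arrays were left out, and so did the 387 calls among all probe sets. Leaving out EGFP-high replicate 1 gave 7 member calls, with 500 among all probe sets. Leaving out EGFP-high replicate 2 gave 3 (226 among all), and EGFP-high replicate 3 gave 4 (191 among all). Leaving out EGFP-negative replicate 1 or 2 gave 4 (277 and 278 among all), and EGFP-negative replicate 3 gave 5 (268 among all). By gene, 8 of the 26 with a tested probe set passed, where 5.33% of 5628 tested genes passed, 3.06% higher and 2.27% lower. With each gene taken as the mean of its tested probe sets 6 passed, 1 higher and 5 lower, without Il4ra and Il6st.

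The 3 EGFP-high and 3 EGFP-negative values did not overlap on 13 of the 48 member probe sets, 2 higher and 11 lower in EGFP-high cells. This is 27.1% of them, where 18.4% of all probe sets did not overlap, 9.97% higher and 8.45% lower. The 13 include the 8 that passed, and also Jak1, Tyk2, Stat6, Irf5 and Irf8. RNA was taken from sorted populations, so a lower value can mean fewer cells expressing a gene or less RNA per cell, and these cannot be told apart.

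**Figure D1:**
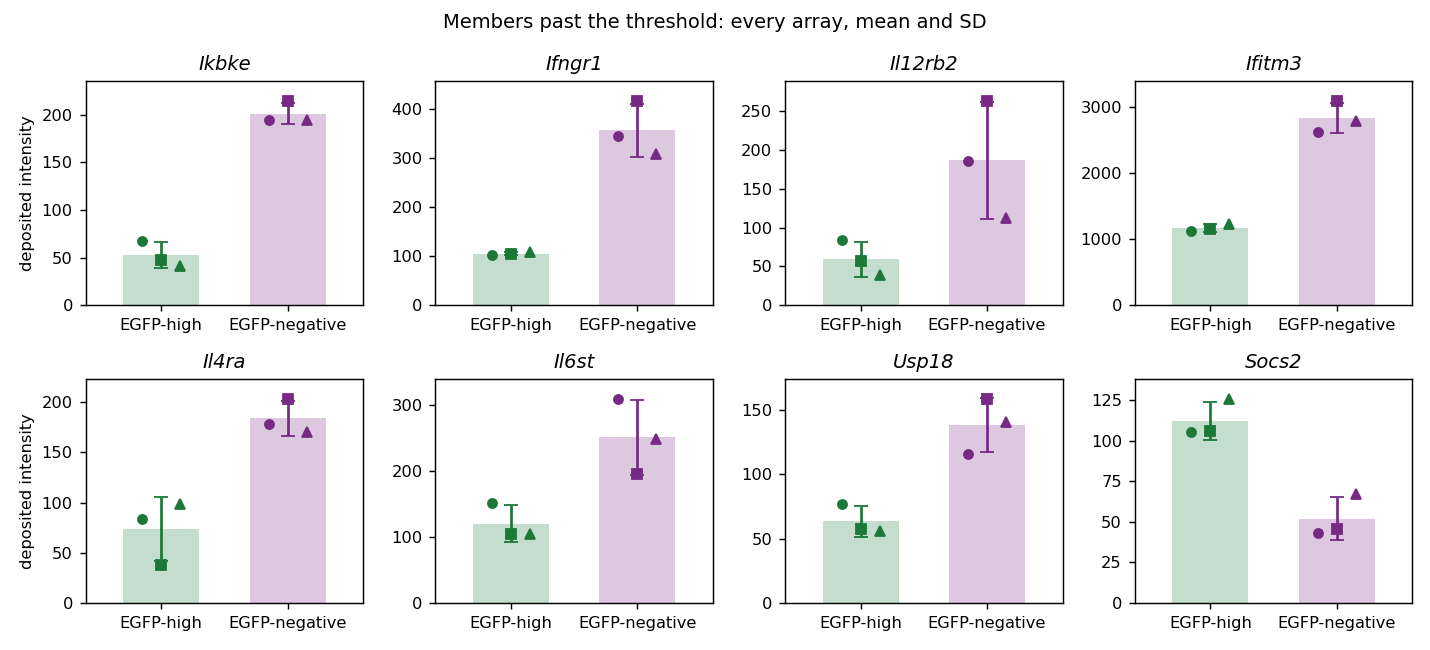
Deposited intensity (vertical axis, linear, from 0) of the 8 member probe sets past the threshold, with EGFP-high arrays in green on the left and EGFP-negative arrays in purple on the right of each panel. Bars are means of 3 arrays, error bars are SD, and circles, squares and triangles are replicates 1, 2 and 3. The groups do not overlap in any panel, and only Socs2 is higher in EGFP-high cells.

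Among receptors, Ifngr1 had the steadiest difference. Ifngr1 encodes the chain that binds interferon gamma. It read 101.6, 104.9 and 109.0 on the EGFP-high arrays, against 345.2, 415.5 and 309.0 on the EGFP-negative arrays. The EGFP-high values lay close together and the lowest EGFP-negative array was far above them. The means were 105 ± 3.71 and 357 ± 54.2 (SD, n = 3 each), a log2 difference of -1.58 (SE 0.16, limma adjusted p = 0.000866). The partner chain Ifngr2, needed for signalling, read 15, 62.8 and 38.2 in EGFP-high and 40.3, 74.6 and 87.1 in EGFP-negative cells. These groups overlapped, and the difference of log2 -0.63 (SE 0.36) did not pass (limma adjusted p = 0.441).

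The type I interferon receptor chains did not pass. Ifnar1, which carries the bound kinase Tyk2, read 118.0, 69.6 and 121.8 on the EGFP-high arrays and 91.3, 109.8 and 59.7 on the EGFP-negative arrays (log2 0.20, SE 0.26, limma adjusted p = 0.757). The groups overlapped widely. Both probe sets of Ifnar2 were too dim to be tested, with values from 5.4 to 43.4.

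The receptor chains of other cytokines that passed were also lower in EGFP-high cells. Il12rb2, a chain of the IL-12 receptor, read 83.6, 56.5 and 38.7 in EGFP-high against 185.7, 263.0 and 112.2 in EGFP-negative cells (log2 -1.36, SE 0.31, limma adjusted p = 0.0396). Its groups did not overlap, although the EGFP-negative arrays differed among themselves. The call was lost without EGFP-high replicate 2 (adjusted p = 0.121 by limma), EGFP-high replicate 3 (0.153), EGFP-negative replicate 1 (0.108) or EGFP-negative replicate 2 (0.117).

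Il4ra, the chain shared by the receptors of IL-4 and IL-13, had probe sets that disagreed. The brighter read 83.5, 37.7 and 98.9 in EGFP-high and 178.0, 203.1 and 170.3 in EGFP-negative cells (log2 -1.20, SE 0.27, limma adjusted p = 0.0372). The dimmer read 54.6, 76.9 and 62.0 in EGFP-high and 65.0, 71.9 and 48.1 in EGFP-negative cells (log2 0.05, adjusted p = 0.938). Only the brighter separated the groups, and its call was lost without EGFP-high replicate 2 (adjusted p = 0.0555) or EGFP-negative replicate 1 (0.0888), 2 (0.115) or 3 (0.0894).

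Il6st, or gp130, is the signalling chain shared by the receptors of IL-6 and related cytokines. Its brighter probe set read 151.9, 103.7 and 103.7 in EGFP-high against 308.4, 195.3 and 248.0 in EGFP-negative cells (log2 -0.95, SE 0.21, limma adjusted p = 0.0377). The other read 105.6, 79.0 and 75.8 against 144.8, 77.3 and 133.2 (log2 -0.35, SE 0.24, adjusted p = 0.538), with overlapping groups. The call of the brighter was lost without EGFP-high replicate 2 (adjusted p = 0.139), EGFP-high replicate 3 (0.152), EGFP-negative replicate 1 (0.112) or EGFP-negative replicate 3 (0.107). For these receptors the probe sets fitted came to 8, of which 4 passed, all lower, where 5.19% of all tested probe sets passed and 2.17% as lower. With the mean of a gene's tested probe sets in place of the brightest, Il4ra and Il6st no longer passed (adjusted p = 0.137 and 0.144 by limma).

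The JAKs themselves did not pass, while Ikbke did. Ikbke encodes IKK epsilon, a kinase that phosphorylates Irf3 and Irf7 upstream of interferon production. It read 67.8, 47.9 and 41.4 on the EGFP-high arrays, against 195.0, 214.1 and 194.7 on the EGFP-negative arrays. The groups were far apart and the EGFP-negative arrays nearly alike, with means of 52.4 ± 13.8 and 201 ± 11.1 (SD, n = 3 each) and a log2 difference of -1.64 (SE 0.19, limma adjusted p = 0.00164). Tbk1, the related kinase that acts beside it, read 123.7, 132.8 and 135.1 in EGFP-high and 119.1, 104.5 and 110.2 in EGFP-negative cells (log2 0.20, SE 0.16, adjusted p = 0.598), and is named here after its values were seen.

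Jak1, which serves both types of interferon receptor and gp130, read 360.7, 254.9 and 349.7 in EGFP-high and 408.3, 415.8 and 459.0 in EGFP-negative cells. Tyk2, the partner of Ifnar1, read 128.3, 138.9 and 98.9 in EGFP-high and 235.0, 144.0 and 160.9 in EGFP-negative cells. Every EGFP-high value lay below every EGFP-negative value for both, but the differences of log2 -0.40 and -0.48 did not pass (limma adjusted p = 0.280 and 0.297). Jak2, which serves the interferon gamma receptor, read 97.1, 114.1 and 132.3 in EGFP-high and 96.7, 104.2 and 106.6 in EGFP-negative cells (log2 0.13, adjusted p = 0.775). Its other probe set did not rise above the controls on any array.

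None of the 5 tested STAT probe sets passed, where 1 had an unadjusted limma p under 0.05 and 17.1% of all tested probe sets did. With the replicate number as a block, 0 of the 5 passed as well. Stat3, the main target of gp130, read 455.7, 719.3 and 411.4 in EGFP-high and 542.1, 634.4 and 523.1 in EGFP-negative cells (log2 -0.13, SE 0.22, limma adjusted p = 0.817). Its second probe set gave log2 -0.26 (SE 0.17), again with overlapping groups. Stat6, which acts below Il4ra, read 246.1, 287.5 and 320.1 in EGFP-high against 392.0, 372.2 and 347.8 in EGFP-negative cells. Its groups did not overlap, and the difference of log2 -0.37 (SE 0.16) did not pass (adjusted p = 0.282). The probe sets of Stat5a gave log2 -0.08 and -0.28. Neither had the standard suffix, and that of the second marks possible cross-hybridization. Stat5b was too dim to be tested at 9.0 to 47.4.

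**Figure D2:**
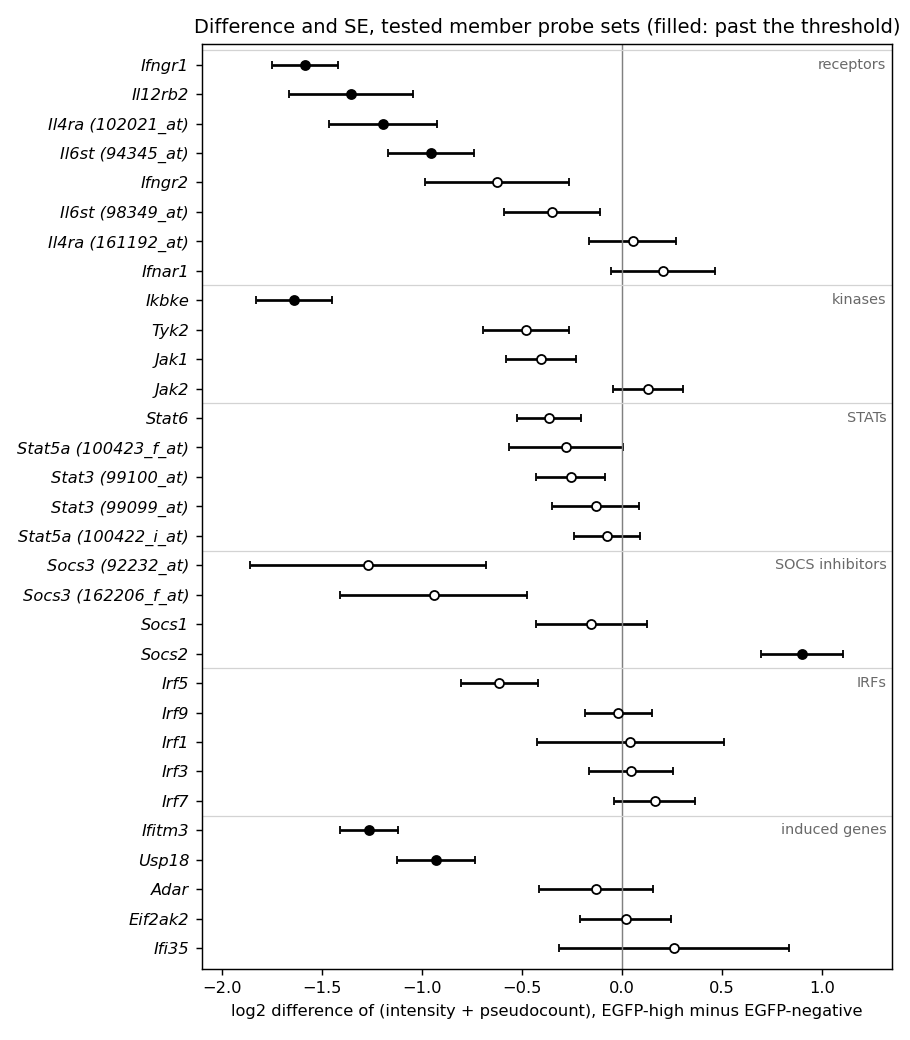
Difference between EGFP-high and EGFP-negative arrays (horizontal axis, log2 of intensity plus pseudocount, negative where lower in EGFP-high) for the 31 tested member probe sets, ordered by role. Points are limma estimates from 3 arrays per group, bars are their SE, and filled points passed the threshold. The filled points are 4 receptor probe sets, Ikbke, Ifitm3 and Usp18 on the left and Socs2 on the right.

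Of the SOCS inhibitors 1 of 4 probe sets passed, as higher, where 3.02% of all tested probe sets did. Socs2, known in mice for limiting growth hormone signalling, read 105.1, 106.0 and 125.6 in EGFP-high against 42.9, 45.5 and 67.4 in EGFP-negative cells. All EGFP-high values were higher, and the difference was log2 0.90 (SE 0.20, limma adjusted p = 0.0396). Its call was lost after quantile normalization (adjusted p = 0.0514) or median scaling (0.0517). It was also lost without EGFP-high replicate 1 (0.0620), 2 (0.115) or 3 (0.162) and without EGFP-negative replicate 1 (0.109) or 2 (0.116). Socs1, a feedback inhibitor of interferon receptors, read 101.6, 56.7 and 107.5 in EGFP-high and 68.9, 97.1 and 137.5 in EGFP-negative cells (log2 -0.16, adjusted p = 0.840).

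Socs3, which binds gp130 and limits Stat3, depended on how replicates were matched. It read 120.8, 423.7 and 713.9 on EGFP-high replicates 1, 2 and 3, and 448.8, 877.4 and 1498.1 on EGFP-negative replicates 1, 2 and 3. The groups overlapped, yet the EGFP-high array was lower in each numbered pair. Its other probe set, whose suffix marks possible cross-hybridization, read 360.8, 438.7 and 774.7 in EGFP-high and 596.7, 691.9 and 2217.4 in EGFP-negative cells, with the same direction in 3 of 3 pairs. Without the pairing neither probe set passed (log2 -1.27 and -0.94, limma adjusted p = 0.324 and 0.359). With the replicate number as a block both passed (adjusted p = 0.00273 and 0.0144). Replicate numbers were taken to pair the arrays, because arrays of the same number departed from their group means together. With the block 11 of the 31 member probe sets passed, 1 higher and 10 lower, where 10.4% of all tested probe sets passed, 5.13% higher and 5.31% lower, and the 11 included all 8 named above. The limma adjusted p of those 8 with the block ran from 0.000406 for Ifitm3 to 0.0230 for Usp18.

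**Figure D3:**
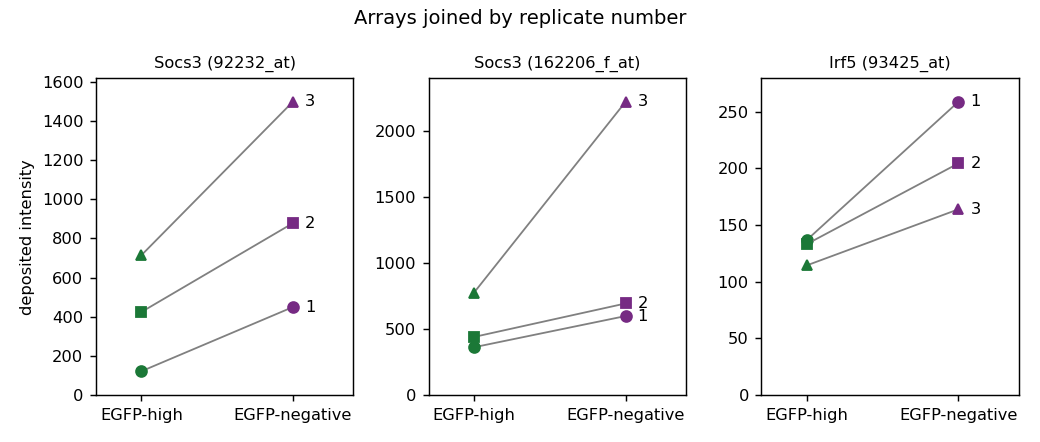
Deposited intensity (vertical axis, linear, from 0) of both Socs3 probe sets and of Irf5, with EGFP-high arrays on the left and EGFP-negative arrays on the right of each panel. Lines join arrays of the same replicate number, which is written beside each line, and every line is higher on the EGFP-negative side.

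Without the block 0 of 5 tested IRF probe sets passed in limma, with 1 at an unadjusted p under 0.05, and with the block 1 passed. Among all tested probe sets 17.1% were at an unadjusted p under 0.05 and 10.4% passed with the block, so 1 of 5 is close to both. The 1 was Irf5, a factor best known from macrophages and dendritic cells, which read 136.7, 133.1 and 114.3 in EGFP-high against 258.5, 204.2 and 163.7 in EGFP-negative cells. The groups did not overlap, and the difference of log2 -0.61 (SE 0.19) had an adjusted p of 0.125, or 0.0435 with the block. Irf9, the DNA-binding part of ISGF3, read 201.5, 188.8 and 151.9 in EGFP-high and 196.9, 170.3 and 180.4 in EGFP-negative cells (log2 -0.02, SE 0.17). These values were intermixed. Irf1, a factor that interferon gamma induces, ranged from 88.4 to 177.9 in EGFP-high and from 54.5 to 298.0 in EGFP-negative cells (log2 0.04, SE 0.47), so its spread within a group exceeded its difference. Irf3, which induces interferon beta, and Irf7, which amplifies type I interferon, gave log2 0.04 and 0.16 on their tested probe sets. The suffix of the Irf7 probe set marks possible cross-hybridization, and the other, too dim to be tested, went the other way (log2 -0.44). Irf8, a factor of myeloid cells, was too dim to be tested. It read 35.7, 35.7 and 26.7 in EGFP-high and 14.6, 19.4 and 16.6 in EGFP-negative cells, above the control level on 2 arrays.

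The induced genes divided by brightness rather than by direction. Of 15 probe sets for 14 genes, 10 were too dim to be tested, and 6 were at or below the control 95th percentile on all 6 arrays. That percentile came from 19 probe sets for bacterial and yeast transcripts and lay between 25.5 and 42.2 on the arrays. Among all probe sets 22.7% were at that level throughout. Ifit1 and Ifit2, antiviral RNA-binding proteins, read 3.4 to 6.3 and 2.3 to 4.2, and Ifit3 of the same family 4.8 to 24.8. The antiviral GTPase Mx1 read 1.0 to 15.4 and the chemokine Cxcl10 6.5 to 17.1. No difference can be read at these intensities, which were low in both groups. A dim probe set does not by itself show that a transcript is scarce. The probe sets of the keratinocyte genes Krt14 and Krt15 were at the control level too.

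Isg15, a ubiquitin-like modifier, was above the control level on 1 EGFP-high and 3 EGFP-negative arrays. It read 18.5, 15.6 and 39.2 in EGFP-high and 72.0, 47.8 and 33.4 in EGFP-negative cells, with overlapping groups. Irgm1, a GTPase of interferon gamma responses, read 3.5, 26.2 and 17.0 in EGFP-high and 59.4, 26.3 and 22.4 in EGFP-negative cells. The GTPase Gbp2 read 8.9 to 36.3 over the 6 arrays, and the related GTPase Igtp 44.3 to 53.4 in EGFP-high and 33.3 to 45.5 in EGFP-negative cells. None of these genes was tested in the main comparison, and fitted without the brightness limit they did not pass (limma adjusted p = 0.378 for Isg15, 0.468 for Irgm1, 0.939 for Gbp2 and 0.736 for Igtp).

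Ifitm3 was the bright exception. Ifitm3 encodes a membrane protein that blocks virus entry, and it is expressed in some cells without added interferon. It read 1116.8, 1147.6 and 1228.4 on the EGFP-high arrays, against 2624.3, 3082.5 and 2783.2 on the EGFP-negative arrays. Replicates lay close together and the groups far apart, with means of 1164 ± 57.6 and 2830.0 ± 233 (SD, n = 3 each) and a log2 difference of -1.26 (SE 0.14, limma adjusted p = 0.00147). Ifitm1 and Ifitm2 of the same family read 59.5 to 90.8 and 52.5 to 99.3 in EGFP-high and 48.8 to 77.8 and 48.6 to 79.8 in EGFP-negative cells. Their groups overlapped, with log2 differences of 0.28 and 0.03, and the difference between the family members was not tested.

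Usp18, which removes Isg15 from proteins and blocks signalling at Ifnar2, read 77.1, 57.4 and 55.7 in EGFP-high against 116.1, 158.4 and 140.5 in EGFP-negative cells. The groups did not overlap, and the difference was log2 -0.93 (SE 0.19, limma adjusted p = 0.0262). The call was lost without EGFP-high replicate 2 (adjusted p = 0.101) or 3 (0.107) and without EGFP-negative replicate 2 (0.102) or 3 (0.0913). Eif2ak2, the RNA-activated kinase PKR, read 59.9, 40 and 49.1 in EGFP-high and 57.4, 40.3 and 48.6 in EGFP-negative cells, nearly the same in each numbered pair. Adar, an RNA-editing enzyme, gave log2 -0.13 on its brighter probe set, with values of 52.4 to 118.4 in EGFP-high and 64.8 to 118.7 in EGFP-negative cells. Ifi35 read 115.1, 21.6 and 47.5 in EGFP-high and 124.5, 19.5 and 19.2 in EGFP-negative cells, high on both arrays of number 1.

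**Figure D4:**
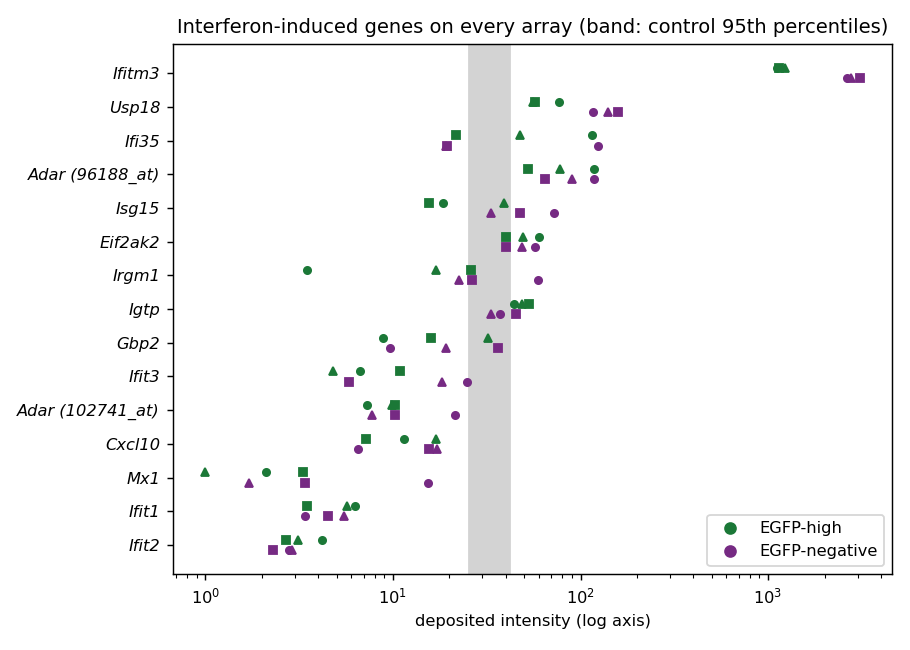
Deposited intensity (horizontal log axis) of the 15 probe sets of interferon-induced members on every array, EGFP-high in green above EGFP-negative in purple in each row, with circles, squares and triangles for replicates 1, 2 and 3. The grey band spans the 95th percentiles of the control probe sets on the arrays (25.5 to 42.2). Ifitm3 and Usp18 separate by group, while Ifit1, Ifit2, Mx1 and Cxcl10 lie left of the band on all arrays.

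Promoters of the members were read to see which carry letters that the factors of this pathway bind. RefSeq promoters (GRCm38.p6, 250 bases before to 50 after a start) matched 35 of the 38 genes. Motifs were searched on both strands as GAAANNGAA, the core of the interferon-stimulated response element (ISRE) bound by ISGF3 and IRFs, and as TTCNNNGAA, the gamma-activated sequence (GAS) bound by STAT dimers. The 2 sets of letters can overlap and were counted apart. ISRE letters stood in promoters of 10 of 12 induced genes, 0 of 7 receptors, 0 of 4 kinases, 0 of 4 STATs, 1 of 2 SOCS genes and 0 of 6 IRFs, and in 9.76% of all 27025 genes of the promoter table. GAS letters stood in promoters of 6 of the 12 induced genes, 3 of the 7 receptors, 0 of the 4 kinases, 0 of the 4 STATs, 1 of the 2 SOCS genes and 2 of the 6 IRFs, and in 9.55% of all genes. Of the 8 members past the threshold 6 had a promoter in the table, and ISRE or GAS letters stood in 2 of these, Ifitm3 and Il12rb2. Among all 27025 genes 4836 held either set of letters. Isg15 and Ifit1 are shown beside them, chosen after their values were seen, because both carry 3 ISRE matches while Ifit1 was at the control level on all arrays and Isg15 on 2 of the EGFP-high arrays. A match is a run of letters and not a measured binding site.

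In the sequences, written 5′ to 3′ on the gene's strand, capitals mark ISRE or GAS letters, and bases are counted from the start site. Ifitm3 is shown at chr7:141010715-141010844 (minus strand, bases -100 to 30), with ISRE letters from 3 to 11 and 20 to 28 and GAS letters from 14 to 22. Il12rb2 is shown at chr6:67376189-67376338 (minus strand, bases -150 to -1), with GAS letters from -123 to -115. Isg15 is shown at chr4:156200819-156200968 (minus strand, bases -150 to -1), with overlapping ISRE letters from -78 to -58. Ifit1 is shown at chr19:34640739-34640888 (plus strand, bases -150 to -1), with ISRE letters from -109 to -95 and from -84 to -76.
Ifitm3: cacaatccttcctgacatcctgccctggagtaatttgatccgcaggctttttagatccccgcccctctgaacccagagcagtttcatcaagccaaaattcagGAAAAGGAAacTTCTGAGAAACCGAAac
Il12rb2: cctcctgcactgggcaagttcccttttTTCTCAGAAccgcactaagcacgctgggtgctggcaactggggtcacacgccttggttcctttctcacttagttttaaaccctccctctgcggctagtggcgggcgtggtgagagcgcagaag
Isg15: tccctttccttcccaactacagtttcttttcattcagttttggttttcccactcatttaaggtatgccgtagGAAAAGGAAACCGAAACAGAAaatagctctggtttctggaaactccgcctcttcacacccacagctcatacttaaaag
Ifit1: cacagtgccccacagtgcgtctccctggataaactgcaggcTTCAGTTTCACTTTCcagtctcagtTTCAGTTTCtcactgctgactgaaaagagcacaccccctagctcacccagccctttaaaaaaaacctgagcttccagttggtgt

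The other genes of the pathway, taken from lists of ligands, receptors, signalling proteins and induced genes, included 109 on the array, of which 54 were tested by their brightest probe set. Of these 54, 5 passed, all lower in EGFP-high cells, where 2.27% of all tested genes passed as lower. They were B2m, the light chain of MHC class I, Psmb8 and Psmb9, subunits of the immunoproteasome, Tap1, a peptide transporter, and Ly6e, an interferon-induced surface protein. So 4 of the 10 tested antigen processing genes passed, and 1 of 17 other induced genes. Ly6e read 762.9, 887.0 and 939.5 in EGFP-high against 1968.8, 1652.7 and 2058.2 in EGFP-negative cells (log2 -1.11, SE 0.16, limma adjusted p = 0.00427). These groups did not overlap, but this probe set too may cross-hybridize. The other Ly6e probe set, too dim to be tested, went the other way with overlapping groups (log2 0.33). It read 23.4, 33.9 and 37.7 in EGFP-high and 28.9, 11.5 and 24.8 in EGFP-negative cells. Tap1 read 373.2, 302.4 and 354.8 in EGFP-high against 686.5, 859.4 and 728.4 in EGFP-negative cells (log2 -1.10, SE 0.16, adjusted p = 0.00489). Its second, dimmer probe set went the other way (log2 0.50, SE 0.30, adjusted p = 0.461). With the mean of both Tap1 did not pass (log2 -0.30, adjusted p = 0.442).

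B2m had the smallest difference of the 5, at 4159 ± 376 in EGFP-high cells, compared with 6864 ± 1070.0 in EGFP-negative cells (SD, n = 3 each; log2 -0.71, limma adjusted p = 0.0457). Its call was lost after quantile normalization (log2 -0.42, adjusted p = 0.205), with no filter (0.146) and without the intensity trend (0.0692). It was also lost without EGFP-high replicate 1 (0.0610), 2 (0.138) or 3 (0.174) and without EGFP-negative replicate 1 (0.132) or 3 (0.133). Among 10 other receptors, 13 other signalling genes and 3 ligands that were tested 0 passed in limma, with 2, 2 and 0 at an unadjusted p under 0.05, shares near or below the 17.1% of all tested probe sets. The ligands were dim as a class, and Ifng read 0.7 to 10.0 over the 6 arrays.

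With the replicate number as a block 10 of the 54 genes passed, 9 lower and 1 higher, where 10.6% of all tested genes passed, 5.29% higher and 5.33% lower. The additional genes were Il6ra, the IL-6 binding partner of Il6st, Il13ra1, the partner of Il4ra in the IL-13 receptor, the STAT-induced inhibitor Cish, the induced gene Ifi27 and the ubiquitin ligase Trim25. Il6ra averaged 184 ± 106 in EGFP-high cells, compared with 396 ± 44.9 in EGFP-negative cells (SD, n = 3 each), with a log2 difference of -1.14 and a limma adjusted p of 0.0763, or 0.0125 with the block. Il13ra1 averaged 273 ± 52.1 in EGFP-high cells, compared with 449 ± 102 in EGFP-negative cells, with log2 -0.68 and an adjusted p of 0.121, or 0.0170 with the block. Trim25, which activates the RNA sensor RIG-I, was the one that was higher, at 240.5 ± 46.9 in EGFP-high cells, compared with 133 ± 19.0 in EGFP-negative cells (log2 0.76, adjusted p = 0.0569, or 0.0221 with the block).

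Markers of other cells that the gates could hold were read beside these results, because leukocytes express Il12rb2, Ikbke, Irf5 and Irf8. All 8 listed leukocyte markers were on the array, and their summed intensity was 1010.0 to 1261 in EGFP-high and 1277 to 1590.0 in EGFP-negative cells. That gap rested on Arhgdib, which was lower in EGFP-high cells (log2 -0.84, limma adjusted p = 0.0191). Without it the sums were 608 to 785 in EGFP-high and 454 to 656 in EGFP-negative cells. The defining leukocyte marker Ptprc stayed at or below 41.5 on all its probe sets, and Cd53 was at the control level throughout. The other markers were not all dim, and 5 of the 8 were above the control level on every array. Beside Arhgdib these were Laptm5 at 208 to 266 in EGFP-high and 119 to 220.1 in EGFP-negative cells, Rac2 at 190 to 323 in EGFP-high and 155 to 299 in EGFP-negative cells, Cd52 and Lcp1. The suffix of this Laptm5 probe set marks possible cross-hybridization. The other Laptm5 probe set read 44.3 to 59.2 in EGFP-high and 38.9 to 45.9 in EGFP-negative cells.

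Of 9 T cell markers 6 were on the array and 2 were tested. Of these 2, Thy1 was lower at 18.4, 59.4 and 85.1 in EGFP-high against 164.1, 207.1 and 154.6 in EGFP-negative cells (log2 -1.51, SE 0.34, limma adjusted p = 0.0382). Cd3g read 46.7, 62.8 and 65.3 in EGFP-high and 48.4, 6.1 and 16.7 in EGFP-negative cells, and Cd3e reached 135.4 on EGFP-high replicate 3 and 19.5 to 28.7 elsewhere. A probe set of Zap70 reached 163.1 on that array too, while its brightest gave log2 -0.33. Cd3d, too dim for the main test, read 18.6, 22.4 and 28.7 in EGFP-high and 2.2, 7.2 and 7.6 in EGFP-negative cells on its brighter probe set. Fitted with no filter it was higher (log2 0.77, limma adjusted p = 0.04995). The T cell sums were 198 to 400 in EGFP-high and 331 to 367 in EGFP-negative cells. Without Thy1 they were 179 to 315 in EGFP-high and 160 to 176 in EGFP-negative cells, so every EGFP-high sum was then the higher. Cd2 was at the control level. Of 12 Langerhans cell and macrophage markers on the array 5 were tested and 0 of these passed, where 5.33% of all tested genes passed. The sums over the 12 were 782 to 1043 in EGFP-high and 619 to 968 in EGFP-negative cells, and Adgre1, Fcer1g, Itgam, Lyz2 and Tyrobp were at the control level. Another 5 were above it on every array, among them Cd74 at 210 to 272 in EGFP-high and 145 to 337 in EGFP-negative cells, H2-Eb1 at 179 to 244 in EGFP-high and 184 to 215 in EGFP-negative cells, and Itgax at 88.8 to 128 in EGFP-high and 62.2 to 115 in EGFP-negative cells. Among 7 fibroblast markers, each by its brightest probe set, 5 were tested and Sparc was higher. The sums over the 7 were 1634 to 2328 in EGFP-high and 1146 to 1323 in EGFP-negative cells. Without Sparc the sums overlapped, at 1011 to 1340.0 in EGFP-high and 1051 to 1196 in EGFP-negative cells. The largest part of these sums was the brightest probe set of Col1a2, at 565.3 to 870.8 in EGFP-high and 695.4 to 736.8 in EGFP-negative cells. A dimmer probe set of the fibroblast marker Col1a2 was also higher (log2 2.32, SE 0.34, limma adjusted p = 0.00489), while its brightest gave log2 -0.03. Both probe sets of Col1a1 had every EGFP-high value above every EGFP-negative value. The brighter did not pass (log2 0.49, limma adjusted p = 0.397). The other, too dim for the main test, read 32.8, 67.9 and 46.7 in EGFP-high and 6.9, 7.5 and 5.4 in EGFP-negative cells. Fitted with no filter it passed (log2 1.37, limma adjusted p = 0.0183). The part of these cells in the member results was not tested. Of 10 bulge markers 8 were on the array and all 8 were higher in EGFP-high cells, a list that may hold genes first reported from such sorts.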

How the data were processed

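Total RNA of 6 samples was measured on an Affymetrix mouse array, 1 array per sample. The authors deposited 1 linear intensity per probe set and array for 12488 rows. From the values, each array had been scaled to a 2% trimmed mean of 150.1. The background method was not given in the sources used here, and neither was the software. The deposited scale was kept, with array medians of 69.75 to 76.2. The 66 control rows were left out. Symbols came from the platform annotation, looked up by Entrez ID in RefSeq (GRCm38.p6, names only). Of 12422 probe sets 10833 had 1 symbol, 396 several and 1193 none listed, and 10817 matched.

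Values were analysed as log2(intensity + 19.3), the 25th percentile of values above 0. Differences are on this scale, which understates those of dim genes. Probe sets with a mean above the 40th percentile (intensity about 44.5) were tested with limma 3.58.1 in R 4.3.3 (lmFit, eBayes with an intensity trend), EGFP-high minus EGFP-negative, two-sided, with Benjamini-Hochberg adjustment over all 7453 and a threshold of 0.05. The fit was checked on data simulated with independent noise on each array. That check did not cover arrays that vary together by replicate number. A gene in a list was represented by its brightest probe set. Every member was to be described, those past the threshold on every array, with promoters shown for those past it that hold motif letters. Members and lists were chosen with earlier results of these data known. Replicate numbers come from the titles. Deviations from group means correlated at 0.336, 0.368 and 0.305 within numbers, above the limit of 0.1, so the numbers were taken as pairs. Between numbers they correlated at -0.0629 or below. Subtracting group means tends to make the values between numbers negative where those within are positive, so these add no separate evidence. The labels do not state this pairing. Values are from the planned fit without the block unless stated. The fits with an array left out did not use the block either, so calls lost in them were not checked with the pairing. Precision is limited by the small number of arrays. Alternatives covered the pseudocount, the filter, normalization, the mean of a gene's tested probe sets, the variance model, the block and each array left out.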

Additional observations from a re-analysis of the deposited data

How the results depend on the processing

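Ifngr1, Ikbke and Ifitm3 kept direction and threshold under every alternative in which they were fitted, with log2 differences of -1.24 to -1.75, -1.11 to -1.97 and -1.09 to -1.33 and adjusted p (limma) up to 0.00760, 0.0113 and 0.0106. Ikbke, Il12rb2, Usp18 and Socs2 were too dim for the filter at the 60th percentile. The member probe sets that passed came to 3 with no filter and 4 with the filter at the 60th percentile, against 8, and the member genes likewise to 3 and 4 against 8. Leaving out single arrays gave 3 to 7 member probe sets, 3 to 7 member genes, 4 to 6 other pathway genes and 191 to 500 of all probe sets, against 387. Without both arrays of replicate number 1, an alternative added after the data were seen, 5 member probe sets and 5 member genes passed. With the replicate number as a block 778 of all probe sets and 10 other pathway genes passed, against 387 and 5. The member calls the block changed were those of Socs3 and Irf5, and all 8 others were kept. With the mean of a gene's tested probe sets 6 member genes and 4 other pathway genes passed, without Il4ra, Il6st and Tap1. The number of member probe sets with groups that did not overlap was 13 after quantile normalization too. No member or named gene reversed direction in a setting where it passed. Levels near the control probe sets limit what can be said of Ifit1, Ifit2, Ifit3, Mx1, Cxcl10, Gbp2 and Irgm1.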

Other observations

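Of the 15 probe sets of induced genes 7 had their highest value of the 6 arrays on EGFP-negative replicate 1, or 46.7% of them, where 20.9% of all 12422 probe sets had theirs there. Among them are Isg15 at 72.0 and Irgm1 at 59.4. For Ifit3, Mx1 and 1 probe set of Adar the highest value was still at the control level, so their order across arrays carries no weight. The 46.7% includes them. It also includes near ties with EGFP-high replicate 1. The other Adar probe set read 118.7 on EGFP-negative replicate 1 and 118.4 on EGFP-high replicate 1, and Ifi35 read 124.5 and 115.1. Some markers of other cells, picked after their values were seen, were also highest on EGFP-negative replicate 1. Coro1a of leukocytes read 69.8 there and 14.4 to 20.2 on the others. H2-Aa of antigen-presenting cells read 66.6 there and 14.7 to 24.1 on the others. All other listed leukocyte markers had their highest value on another array. Cd74 and H2-Ab1 were highest there too, while H2-Eb1, Itgax, Cd68 and Csf1r were highest on other arrays. The count of induced genes was chosen after the values were seen and was not tested, and the part of other cells in it was not tested.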
